A study of Citrus sinensis with 72 samples.

Results

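The navel orange fruit has a flesh of juice sacs (JS), the vesicles that hold the juice, inside segments bounded by the segment membrane (SM), and a peel of coloured epicarp (EP) over white, spongy albedo (AL). The 91 genes described here had a higher mean level over the stages in both SM and JS than in EP and AL. They were chosen from the measured values among the 30940 genes of the table. For each group of a tissue at a stage, the level was log2 of the mean FPKM plus 1, and a tissue's level was its mean over the 6 stages. A gene was taken when its highest group mean was 10 to 3000 FPKM, when SM and JS were less than 1 apart, and when the lower of the 2 was at least 1 above both EP and AL. That last difference is called the gap below. The range of FPKM held 13280 genes, of which 12220 had SM and JS less than 1 apart, and 91 of these passed the gap limit. A limit of 300 genes was not reached. FPKM divides the fragments of a gene by its length and by the size of the library, so levels can be compared between genes, but each is a share of its own library.

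Fruits came from trees of Citrus sinensis 'Fengjie 72-1' grown in 1 orchard, and the labels give no treatment. JS, SM, EP and AL were separated by hand at stages 1 to 6. The labels place these between 50 days after flowering (DAF) at stage 1 and 220 DAF at stage 6, with 80, 120, 150 and 180 DAF for stages 2, 3, 4 and 5. Each of the 24 groups had 3 biological replicates. By the study's methods, stage 4 was a few days later than its label. Each replicate pooled fruits of several trees, every tree was sampled at each stage, and which trees a replicate number stands for was not stated, so the p-values treat libraries as independent. The JS were scraped from the SM by hand. Carry-over between them was not tested. The study reported a lower RNA integrity score for most EP and AL libraries than for most SM and JS libraries. Tissue and RNA integrity thus cannot be told apart in the contrast of flesh and peel.

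Juice sacs grow inwards from the inner side of the segment membrane. They elongate, fill with juice and store sugars and citric acid in large vacuoles as the fruit expands. The peel bears a waxy cuticle and oil glands and gains carotenoids on colouring. The orange is a nonclimacteric fruit, which ripens without a burst of ethylene. The table gives gene IDs that it does not pair with names, and 0 of the 30940 IDs matched the reference table. No role can therefore be given for any of the 91 genes, tissue markers and pathways could not be checked, and genes are named by ID only, at most 2 in each direction of a comparison.

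The libraries held 15365221 to 25424354 fragments (median 19458683.5), recovered from the steps of the FPKM values. By the study's figures, base quality was higher in the SM6 libraries than in all others. Its part in comparisons with SM6 was not tested. Over all genes, each library was most like another of its own group, except replicate 1 of EP2, AL2 and AL3. Over the 91 genes the exceptions were replicates 1 and 3 of AL2, replicate 1 of AL3 and 2 flesh libraries: replicate 1 of SM3 was closest to replicate 1 of JS3, and replicate 1 of JS4 to replicate 1 of SM4. Replicate 2 of AL2 was the highest of its group for 52 of the 87 genes above 0 there. Leaving out replicate 1 of EP2, AL2 and AL3 gave 93 genes by the same rule, of which 85 were among the 91, and leaving out replicate 2 of AL2 gave 96, of which 90 were.

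The gap had a median of 1.30 on the log2 scale and reached 3.48. It was at least 1.5 in 31 genes, at least 2 in 12 and at least 3 in 3. The median level over the 91 genes was 3.82 in JS and 3.76 in SM, against 1.37 in EP and 1.69 in AL. These values chose the genes and are given as a description. Just inside the limit were Cs8g07240 (gap 1.009) and Cs1g24710 (1.015), and just outside it were Cs2g07580 (0.999) and Cs4g20370 (0.998). Another 48 genes had the gap but differed by 1 or more between SM and JS, 43 of them higher in JS and 5 higher in SM. Within the 91 genes, 65 were higher in JS than in SM and 26 higher in SM. In the peel, 63 were higher in AL than in EP and 28 higher in EP. The highest group mean was in JS for 68 genes, in SM for 21, in AL for 2 and in EP for 0. The exceptions in AL, orange1.1t00416 and orange1.1t01729, were highest in AL1, at the first stage only. Genes were shorter than others of their FPKM range, with a median length of 1264 bases implied by the fragments, against 1701 bases.

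When the rule was applied without 1 replicate number, the replicate left out gave values that the choice had not used. Of 85 genes chosen without replicate 1, 77 had a gap of at least 1 in it. The count was 68 of 108 genes in replicate 2 and 77 of 101 in replicate 3. A gap above 0 was found in 85 of 85, 107 of 108 and 99 of 101 genes. The libraries left out came from the same tissues and stages and, by the pooling of fruits, from the same orchard. No share over other genes was set beside these counts, which are a description only.

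The largest gap was that of orange1.1t04984 (3.48). It had 111, 139 and 97.9 FPKM in JS6, against 3.14, 0.855 and 1.87 FPKM in JS1. In SM it had 152, 270.1 and 167 FPKM in SM6, against 3.14, 3.02 and 7.35 FPKM in SM1. EP stayed at or under 2.28 FPKM in all 18 libraries, and AL reached 13.0, 7.71 and 8.94 FPKM at stage 6. Every flesh library was above every peel library of the same stage. The next gap was that of Cs7g02970 (3.39), which was near 0 in both flesh tissues at stages 1 and 2 and is followed further below. The highest levels were those of Cs3g11410 and Cs6g14330, which were also high in the peel. Cs3g11410 had 2656, 3290.4 and 2511 FPKM in JS2 and 1800.3, 1678 and 1821 FPKM in SM2, against 275, 538 and 516 FPKM in EP2 and 549, 694 and 741 FPKM in AL2. Cs6g14330 had 2200.5, 2635 and 1998 FPKM in JS2 and 1206, 1281 and 1328 FPKM in SM2, against 233, 389 and 420.4 FPKM in EP2 and 514, 553 and 729.8 FPKM in AL2. Both groups of flesh libraries lay above both groups of peel libraries. A gene could thus belong to the set with ample expression in the peel: 50 of the 91 genes had a peel group mean of at least 10 FPKM, and 8 stayed under 1 FPKM in every peel group.

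The contrast of flesh and peel was not equally strong at all stages. The median gap over the 91 genes was 1.18, 1.79, 1.35, 0.95, 0.92 and 0.50 at stages 1 to 6. All 6 flesh libraries lay above all 6 peel libraries in 67, 74, 65, 59, 58 and 52 genes. Among all 13280 genes of the FPKM range this was so in 5.74%, 5.44%, 3.78%, 2.64%, 8.02% and 5.74%, from which nothing is read since the rule used these levels. At every stage it was so in 20 genes, a count for which no share over all genes is given here. A gap of at least 1 was found in 54, 71, 58, 43, 41 and 29 genes (2.24%, 2.58%, 1.39%, 1.03%, 1.39% and 1.3% of the genes of the range). It was found at every stage in 6 genes, again without a share over all genes. Nothing is read from these counts either. Those 6 included orange1.1t04984 and Cs1g02750. The level of 1 tissue falling, or of another rising, can narrow a gap, and in whole tissues fewer cells of a type and less RNA per cell cannot be told apart.

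**Figure D1:**
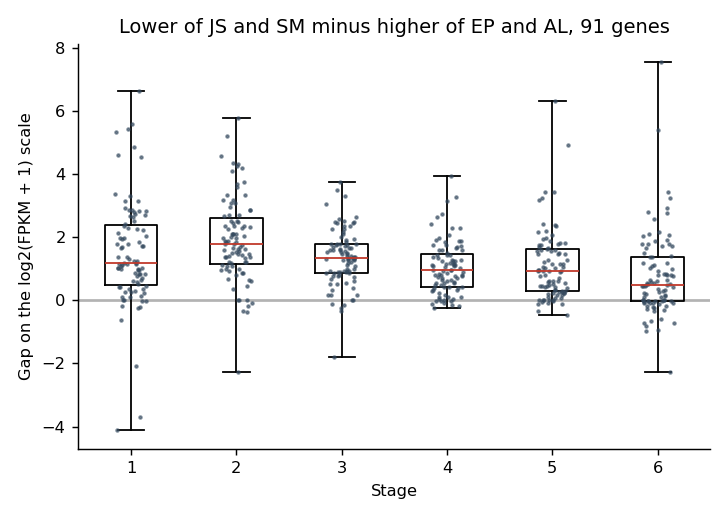
Gap of each of the 91 genes at stages 1 to 6, on the log2(FPKM + 1) scale: the lower of JS and SM minus the higher of EP and AL. Points are genes, boxes span the quartiles, red lines are medians and whiskers reach the extremes. The median was highest at stage 2 (1.79) and lowest at stage 6 (0.50), where 61 of the 91 genes had both flesh means above both peel means. No share over all genes is given for this count, which describes levels that the rule used.

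The 91 genes together made up a smaller share of the flesh libraries later in development. Their summed level in JS was 18205 ± 2325 FPKM at stage 1, 16906 ± 688 at stage 2, 10514 ± 811 at stage 3, 8990 ± 1769 at stage 4, 7636 ± 1148 at stage 5 and 5534 ± 496 at stage 6 (SD, n = 3 each). In SM the sum was 8381 ± 826 FPKM at stage 1, 12811 ± 468 at stage 2, 9105 ± 863 at stage 3, 6477 ± 842 at stage 4, 5599 ± 665 at stage 5 and 5360 ± 544 at stage 6 (SD, n = 3 each). As a share of all FPKM of a library, the mean was 0.704% in JS6, against 2.59% in JS1, and 0.665% in SM6, against 1.81% in SM2. The mean JS sum was lower at each stage than at the one before, and the mean SM sum had its highest value at stage 2. Single JS libraries overlapped between stages 1 and 2, stages 3 and 4, and stages 4 and 5. The sum gives most weight to genes of high level. The median level per gene was also lower at stage 6 than at stage 1, but in JS it was higher at stage 4 than at stage 3. It was 5.08, 5.02, 3.73, 3.93, 3.58 and 2.63 in JS and 4.43, 4.77, 3.82, 3.66, 3.57 and 3.32 in SM at stages 1 to 6. In EP it was between 0.98 and 1.80, and in AL between 1.15 and 2.05.

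**Figure D2:**
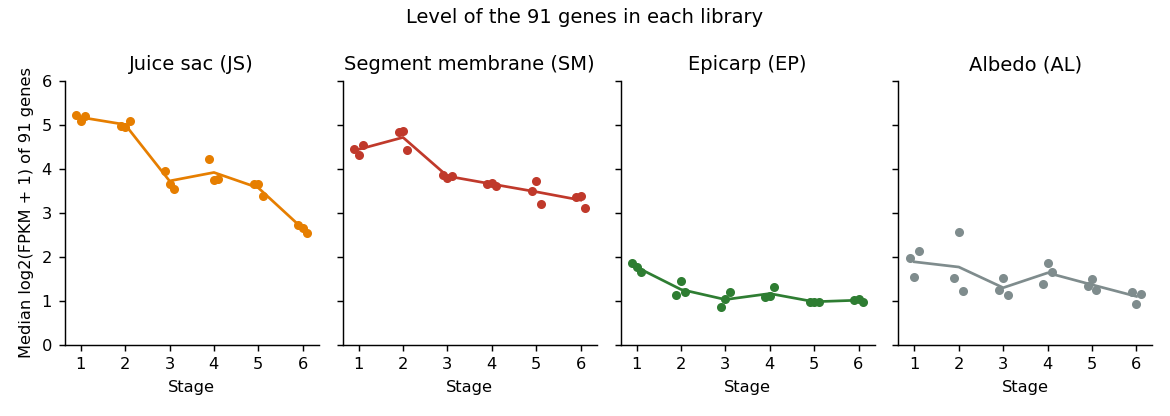
Median log2(FPKM + 1) of the 91 genes in each library (points) and the mean of the 3 replicates (lines), by stage, in JS, SM, EP and AL. The JS libraries lay between 2.54 and 2.72 at stage 6 and between 4.96 and 5.22 at stages 1 and 2. No EP or AL library reached the level of any JS or SM library of its stage.

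Most of the genes had their highest level early. In JS the highest group mean was at stage 1 in 43 genes (47.3%, against 37.9% of all genes of the FPKM range), at stage 2 in 22 (24.2% against 11.7%) and at stage 6 in 11 (12.1% against 25.7%). In SM it was at stage 1 in 24 genes (26.4% against 32.3%), at stage 2 in 34 (37.4% against 15.5%) and at stage 6 in 13 (14.3% against 13.6%). Both tissues had the highest level at stage 1 or 2 in 56 genes and at stage 5 or 6 in 16. The lowest JS mean was at stage 6 in 55 genes. Levels also ranged widely. The median distance between the highest and the lowest stage was 3.85 on the log2 scale in JS, against 1.34 for genes of the range, and 3.00 in SM, against 1.38. In EP it was 1.44 (1.06 for the range) and in AL 1.85 (1.29). Part of this width is set by the rule: the highest group mean had to reach 10 FPKM, and 31 genes had a mean level in both SM and JS below that of 10 FPKM, so that they had to vary.

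**Figure D3:**
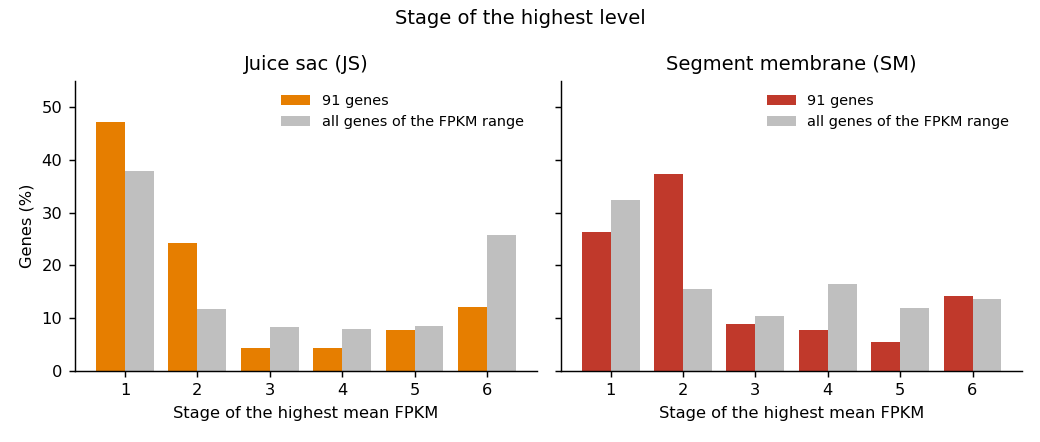
Percentage of genes whose highest group mean fell at each stage, in JS (left) and SM (right), for the 91 genes (coloured bars) and all genes of the FPKM range (grey bars). In JS the 91 genes peaked most often at stage 1 (47.3%), and in SM at stage 2 (37.4%).

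The courses in JS and SM ran together for most genes. Pearson's r of the 6 stage levels between JS and SM had a median of 0.88 over the 91 genes, and was above 0.8 in 67 of them (73.6%). Over the genes of the range the median was 0.83 and the share 55.2%. In 7 genes r was below 0. Each r rests on 6 stages of the same trees and is a description. The 91 genes also varied more over the stages than genes of the range, partly by the rule. The values of r are thus not set against like genes. The stage of the highest level was the same in 52 genes (57.1%, against 53.5% of the range).

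The fruit at full ripening, stage 6, was then set against stage 1 within each tissue, with limma on log2(FPKM + 1) fitted over all genes tested in the 6 libraries and a Benjamini-Hochberg adjusted p under 0.05. The rule had not used this difference, but its limit on the highest group mean made genes of a low mean level vary over the stages, so the counts and medians below are not free of the choice. In JS6 vs. JS1, 62 of the 91 genes were lower and 23 higher, 85 in all. Of the 16705 genes tested, 76.2% were called, 45.7% lower and 30.5% higher. Among genes under the same limit on the highest group mean, 76.8% were called. The median log2 fold change was -2.20, against -0.25 over all genes tested. In SM6 vs. SM1, 55 genes were lower and 28 higher, 83 in all, where 69.6% of all genes tested were called, 43.1% lower and 26.4% higher. Of the genes under the same limit, 71% were called. The median was -1.24, against -0.29. At least 10-fold lower levels on the log2(FPKM + 1) scale were found in 36 genes in JS and 24 in SM, and at least 10-fold higher ones in 7 in JS and 5 in SM. The shares of all genes past these sizes are not given here, so nothing about the set is read from these counts. The scale understates the change of genes with a low FPKM.

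Both flesh tissues were lower at stage 6 in 52 genes (33.1% of all genes tested in both) and higher in 20 (18.8%). Of the others, 12 genes were called in 1 tissue and 1 gene in neither. In the peel only the genes with at least 1 FPKM in at least 3 libraries could be tested. In EP6 vs. EP1, 36 of 62 genes were lower and 13 higher, with 61% of all genes tested called, 38.2% lower and 22.9% higher. In AL6 vs. AL1, 30 of 59 genes were lower and 19 higher, with 67.6% of all genes tested called, 26.3% lower and 41.3% higher. Their medians were -0.81 in EP and -0.85 in AL, against -0.19 and 0.28 over all genes tested. In all 4 tissues, 22 of 52 genes were lower (13.5% of all genes tested in the 4) and 5 higher (11%). Leaving out replicate 2 of EP1 took the EP count to 32.

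The genes with the largest falls in the flesh were strongly expressed in young fruit and close to undetected in ripe fruit. Cs8g04070 had 0.666, 0.249 and 0.834 FPKM in JS6, against 1709, 1140.0 and 1839 FPKM in JS1, a log2 fold change of -9.94 (SE 0.22, limma adjusted p = 1.42e-08). In SM its means were 2.17 FPKM in SM6 and 299.7 FPKM in SM1. The 2 stages did not overlap in JS or in SM. In orange1.1t01576, JS6 had 0 FPKM in each of the 3 libraries, against 795, 626 and 1162 FPKM in JS1. With the limit of 3 fragments per library that a count of 0 allows, this was at least 4747-fold lower. In SM6, Cs6g09970 had 0 FPKM in each of the 3 libraries, against 337, 418 and 596 FPKM in SM1, at least 3357-fold lower by the same limit, and it was also at 0 in all of JS6, against 466, 358 and 456 FPKM in JS1. Most of its decline came early: the JS mean was 30.7 FPKM at stage 2 and 0.99 FPKM at stage 3. Cs5g31450 had 0.165, 0.154 and 0 FPKM in SM6, against 378, 385 and 578 FPKM in SM1. The SM6 values rest on 6 fragments in all, which puts SM1 4551-fold above SM6 with an exact 95% counting interval of 2091 to 12403. Its fitted log2 fold change was -8.64 (SE 0.19, limma adjusted p = 1.09e-08). All fitted values of genes at or near 0 depend on the pseudocount.

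The genes with the largest rises were high in ripe flesh and near 0, or low, in young flesh. Cs7g02970 had 370.1, 449.6 and 429 FPKM in JS6, against 0.0316, 0.0653 and 0.0319 FPKM in JS1. In SM it had 269, 502 and 399.8 FPKM in SM6, against 0.0546, 0.0315 and 0 FPKM in SM1. The early groups held 4 fragments in JS1 and 3 in SM1, so the ratios were 9731 (exact 95% counting interval 3800.2 to 35714) in JS and 13465 (4607 to 65296) in SM. The fitted log2 fold changes were 8.64 (SE 0.12, limma adjusted p = 1.79e-09) in JS and 8.53 (SE 0.22, limma adjusted p = 1.90e-08) in SM. In the peel the highest library had 1.67 FPKM. Cs3g25010 had 1046, 1331 and 1123 FPKM in JS6, against 0.307, 0.278 and 0.31 FPKM in JS1, a log2 fold change of 9.80 (SE 0.12, limma adjusted p = 1.53e-09). In SM it had 272, 309.9 and 278 FPKM in SM6, against 10.1, 2.98 and 5.16 FPKM in SM1, with 5.47 (SE 0.32, limma adjusted p = 1.13e-06). In the peel, EP6 had 1.25, 1.96 and 1.38 FPKM, against 10.5, 6.88 and 4.35 FPKM in EP1, and AL6 had 5.49, 4.27 and 7.72 FPKM, against 16.0, 14.8 and 16.8 FPKM in AL1. At stage 1 all 6 peel libraries of this gene were above all 3 JS1 libraries, so its place among the 91 genes came from later stages.

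**Figure D4:**
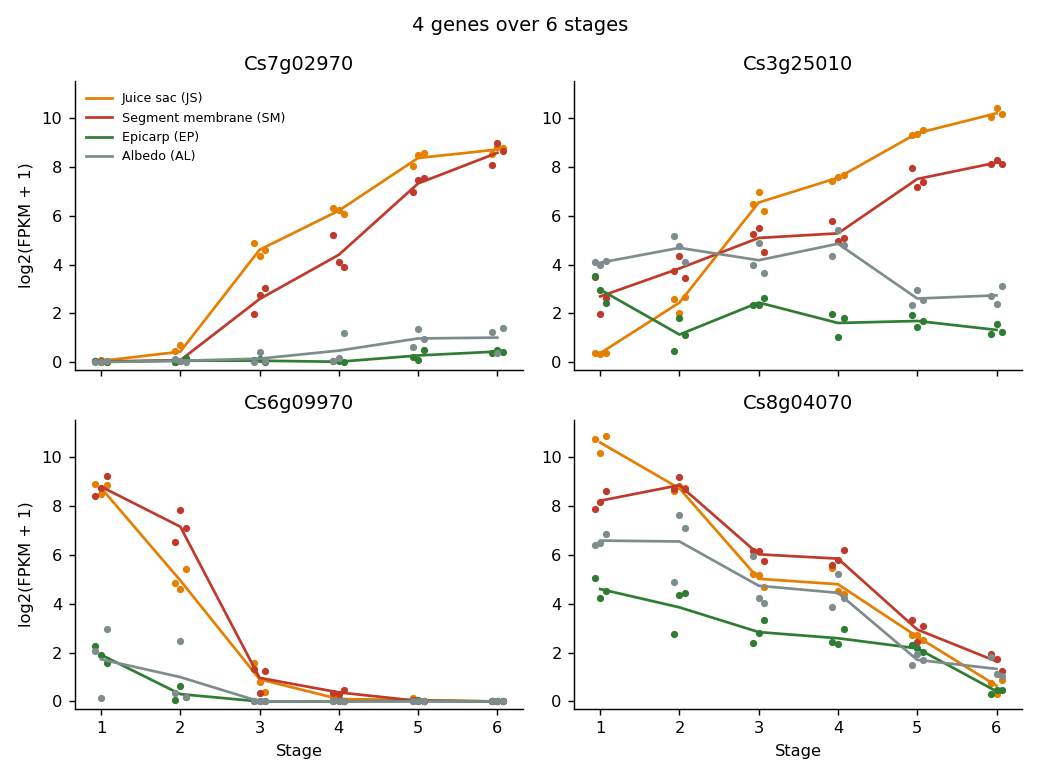
Levels of Cs7g02970, Cs3g25010, Cs6g09970 and Cs8g04070 by stage as log2(FPKM + 1), with a point for each library and a line through the mean of the 3 replicates, in JS, SM, EP and AL. The upper genes were high in flesh late and the lower genes early, and Cs3g25010 was higher in AL and EP than in JS at stage 1.

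In the peel, the named genes with the largest changes were partly others. Cs5g32870 had 31.2, 32.1 and 29.8 FPKM in EP6, against 0.284, 0.592 and 0.404 FPKM in EP1, a log2 fold change of 4.50 (SE 0.13, limma adjusted p = 4.03e-07). In AL it had 24.2, 14.2 and 30.1 FPKM in AL6, against 0.0765, 0 and 0.192 FPKM in AL1. Its JS means were 63.7 FPKM in JS6 and 5.79 FPKM in JS1. Cs3g24200 had 83.7, 58.9 and 75.5 FPKM in AL6, against 2.13, 1.11 and 0.89 FPKM in AL1, a log2 fold change of 4.97 (SE 0.23, limma adjusted p = 1.51e-06). Cs2g14980 had 9.32, 9.53 and 16.1 FPKM in EP6 and was at 0 in all of EP1, at least 86.9-fold higher. Among those lower, Cs5g24990 had 2.10, 1.79 and 1.61 FPKM in EP6, against 78.3, 63.6 and 42.6 FPKM in EP1, and orange1.1t01576 was at 0 in all of EP6, against 18.7, 26.9 and 12.3 FPKM in EP1. The genes with their highest mean in AL1 were lower there at stage 6. In orange1.1t01729, AL6 had 0.202, 0.49 and 0.187 FPKM, against 97.7, 100.1 and 101 FPKM in AL1. In orange1.1t00416, AL6 had 0, 0 and 0.0956 FPKM, against 193, 32.2 and 28.5 FPKM in AL1, where replicate 1 was far above the others.

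Whether JS and SM changed by different amounts was tested as a difference of differences in 1 fit of all 24 groups. The change of stage 6 vs. stage 1 differed between JS and SM in 54 of the 91 genes, where 30.4% of the 20077 genes tested differed. JS fell further, or rose less, in 47 of them (15.6% of all genes tested), and the opposite was so in 7 (14.9%). The median difference was -1.25 on the log2 scale, against 0.05 over all genes tested. Among the genes of the FPKM range, 34.3% differed. The rule held the mean levels of JS and SM close and asked for a high group mean. The highest group mean lay in JS for most of the 91 genes, so the count, its split and the median are not free of the choice. Cs2g11110 fell further in JS. It had 0.563, 0.533 and 0.0573 FPKM in JS6, against 90.7, 51.0 and 67.4 FPKM in JS1, and 2.68, 3.32 and 2.73 FPKM in SM6, against 5.46, 6.50 and 9.17 FPKM in SM1. Its difference was -4.64 (SE 0.58, limma adjusted p = 8.85e-09). Cs3g25010 rose more in JS, by a difference of 4.34 (SE 0.47, limma adjusted p = 1.45e-10). JS ended above SM in that gene after starting below it.

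Opposite calls in the 2 tissues were found in 6 genes. In 4 of them JS was lower and SM higher at stage 6 (2.34% of all genes tested in both), and in 2 JS was higher and SM lower (1.96%). Cs7g15300 had 2.70, 3.04 and 2.44 FPKM in JS6, against 12.8, 13.2 and 15.5 FPKM in JS1, and 11.2, 16.2 and 13.0 FPKM in SM6, against 2.73, 1.69 and 2.11 FPKM in SM1. The difference between the tissues was -4.18 (SE 0.39, limma adjusted p = 1.65e-12). Its level was thus higher in SM at stage 6 and in JS at stage 1, without overlap of the 2 tissues at either stage. Cs7g30190 went the other way. It had 12.1, 15.6 and 6.63 FPKM in JS6, against 0.999, 0.93 and 1.11 FPKM in JS1, and 1.92, 3.77 and 1.82 FPKM in SM6, against 143, 18.2 and 7.96 FPKM in SM1. The difference was 5.66 (SE 1.21, limma adjusted p = 2.60e-04). The spread was wide, since SM1 ran from 7.96 to 143 FPKM between replicates.

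**Figure D5:**
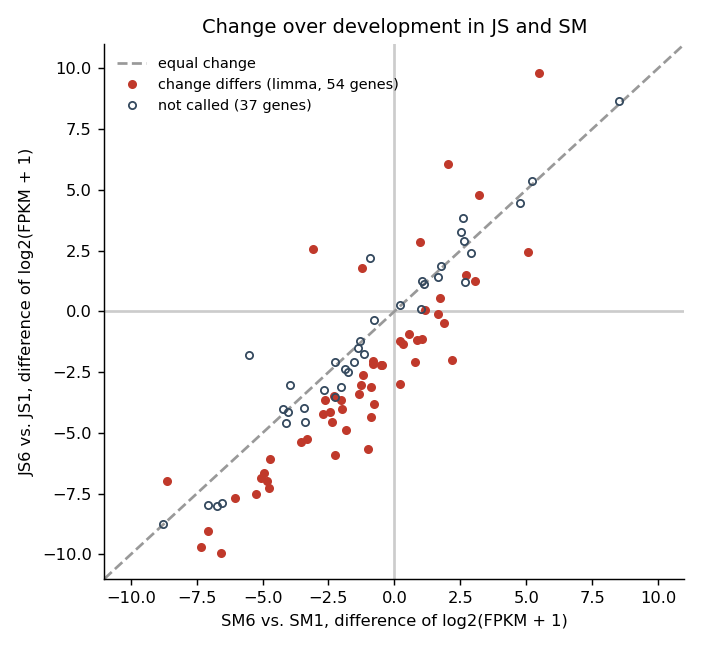
Difference of log2(FPKM + 1) between stage 6 and stage 1 in JS (vertical) against SM (horizontal) for the 91 genes, with the line of equal change. Filled points are the 54 genes whose change differed between the tissues in limma (adjusted p under 0.05), and open points are the other 37. Most filled points lie below the line, where JS fell further or rose less than SM.

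Whether the flesh and the peel changed by different amounts was fitted in the same way, as the change of the mean of JS and SM minus that of the mean of EP and AL. Not all of the 91 genes can be read in this contrast. In EP6 vs. EP1, AL6 vs. AL1 or both, 39 of them lay below the limit for testing. Some of the 39 lay below it in only 1 of EP and AL, and the rest in both. For those below it in both, the contrast largely restates the change of the flesh, which the rule had set above the peel. Among the 52 genes tested in each of the 4 tissues, 39 had a difference past the threshold, 31 lower in the flesh (30.2% of the 14847 genes tested in the 4) and 8 higher (11.9%), with 42.2% called in all. Their median was -0.75 on the log2 scale, against -0.24 over all genes tested in the 4. These 52 genes had also been chosen for a lower level in the peel than in the flesh. A level near 0 has less room to change on this scale, and nothing is read from the share of the 52 genes. With all 91 genes the count was 73, with 55 lower and 18 higher, against 45%, 30.3% and 14.7% of all genes tested. This count takes in the 39 genes above, so nothing is read from it either. Cs3g25010, which could be tested in the peel, had a difference of 9.13 (SE 0.33, limma adjusted p = 8.78e-30).

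Consecutive stages placed these changes in time. In SM, 43 of 88 genes were higher at stage 2 than at stage 1 and 15 lower, 58 in all. Over all genes tested 55.5% were called, with 21.2% higher and 34.2% lower. The median log2 fold change was 0.55, against -0.20 over all genes. At SM3 vs. SM2, 11 of 88 genes were higher and 42 lower (11.9% and 16.3% of all genes, 28.2% in all). The count of 53 fell to 35 without replicate 2 of SM2 or without replicate 2 of SM3. At SM4 vs. SM3, 13 of 83 were higher and 23 lower (8.36% and 5.91%, 14.3% in all), a count that fell to 13 without replicate 2 of SM3, to 15 without replicate 3 of SM3 and to 20 without replicate 3 of SM4. Scaling the libraries to equal medians of the gene-wise ratios (median-ratio scaling) gave 9 higher and 31 lower. At SM5 vs. SM4, 14 of 77 were higher and 21 lower (9.15% and 9.77%, 18.9% in all), with 21 called without replicate 2 of SM5. At SM6 vs. SM5, 8 of 70 were higher and 13 lower (2.95% and 7.26%, 10.2% in all), with 11 called without replicate 3 of SM6.

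In JS the first step went both ways. At JS2 vs. JS1, 31 of 88 genes were higher and 33 lower, 64 in all, against 10.3% and 34% of all genes tested and 44.3% in all. Under median-ratio scaling the split was 35 higher and 23 lower. At JS3 vs. JS2, 6 of 89 were higher and 42 lower (5.39% and 7.6%, 13% in all), with a median of -0.99 against 0.02 over all genes tested. At JS4 vs. JS3, 15 of 86 were higher and 12 lower (6.05% and 3.82%, 9.87% in all). Median-ratio scaling gave 11 higher and 15 lower, and the count of 27 fell to 11 without replicate 2 of JS3 and to 15 without replicate 2 of JS4. At JS5 vs. JS4, 9 of 82 were higher and 24 lower (6.63% and 8.4%, 15% in all), with 15 called without replicate 2 of JS4, 19 without replicate 3 of JS4 and 15 without replicate 1 of JS5. At JS6 vs. JS5, 5 of 70 were higher and 35 lower (5.1% and 10.4%, 15.5% in all). This last count of 40 moved when single libraries were left out. It was 14 without replicate 1 of JS5, 23 without replicate 2 of JS5 and 50 without replicate 3 of JS5. Without replicates 1, 2 and 3 of JS6 it was 22, 23 and 17. A group of 2 libraries also leaves the fit fewer degrees of freedom, and why the count moved was not tested. Genes that were no longer at 1 FPKM in 3 libraries of a step left its test, so the counts of late steps cover fewer of the 91 genes.

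Named genes of the steps give the sizes. In SM, Cs7g09380 had 405, 397 and 425 FPKM in SM2, against 47.9, 40.2 and 64.4 FPKM in SM1, a log2 fold change of 3.01 (SE 0.18, limma adjusted p = 2.80e-06). It was among the genes of SM with a peak at stage 2, and had 9.53, 11.6 and 8.13 FPKM in SM6. On the lower side, orange1.1t05946 had 0.891, 0.815 and 0.215 FPKM in SM2, against 34.4, 19.5 and 5.39 FPKM in SM1. The SM1 libraries of this gene differed widely, and it was higher again at stage 6, with 82.2, 144 and 94.1 FPKM in SM6. At the next step orange1.1t01576 had 3.92, 3.32 and 3.41 FPKM in SM3, against 249, 334 and 291 FPKM in SM2, with -6.00 (SE 0.15, limma adjusted p = 2.54e-06). Higher at that step was Cs3g24200, which had 48.2, 77.9 and 104 FPKM in SM3, against 8.88, 7.32 and 9.08 FPKM in SM2. Cs3g26090 had 42.8, 47.0 and 45.3 FPKM in SM4, against 7.83, 11.2 and 5.81 FPKM in SM3, with 2.35 (SE 0.23, limma adjusted p = 0.00184), and Cs3g23280 had 4.86, 5.43 and 5.85 FPKM in SM4, against 59.1, 38.7 and 45.4 FPKM in SM3, with -2.92 (SE 0.21, limma adjusted p = 6.88e-04). At the last step Cs5g24990 had 39.4, 53.8 and 43.4 FPKM in SM6, against 14.2, 12.2 and 12.2 FPKM in SM5, with 1.74 (SE 0.14, limma adjusted p = 6.63e-04). Its course in SM was called at all 5 steps, and its levels were high in young, low in middle and again higher in ripe flesh.

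In JS, Cs7g30190 had 123, 15.2 and 94.6 FPKM in JS2, against 0.999, 0.93 and 1.11 FPKM in JS1, with 4.84 (SE 0.65, limma adjusted p = 6.28e-04), and Cs4g17490 had 653, 125 and 444 FPKM in JS2, against 13.3, 21.0 and 17.2 FPKM in JS1. Both were spread widely at stage 2, with replicate 2 the lowest. On the lower side, Cs6g09970 had 27.6, 23.2 and 41.2 FPKM in JS2, against 466, 358 and 456 FPKM in JS1, with -3.79 (SE 0.23, limma adjusted p = 1.91e-05). At the next step orange1.1t01576 had 4.52, 9.87 and 2.08 FPKM in JS3, against 474, 438 and 390.3 FPKM in JS2, with -6.25 (SE 0.39, limma adjusted p = 1.33e-04). Later, Cs5g04980 was higher at JS4 and lower at JS5. Its JS libraries had 5.98, 11.7 and 3.33 FPKM at stage 3, 62.0, 60.7 and 42.6 FPKM at stage 4 and 1.25, 1.15 and 0.488 FPKM at stage 5, so that stage 4 stood above both its neighbours without overlap. SM showed the same order, with 5.53, 8.0 and 7.66 FPKM at stage 3, 18.5, 24.6 and 29.2 FPKM at stage 4 and 3.25, 2.42 and 1.36 FPKM at stage 5. At the last step Cs2g25450 had 124, 114 and 121 FPKM in JS6, against 12.3, 13.5 and 16.9 FPKM in JS5, with 2.99 (SE 0.13, limma adjusted p = 3.71e-04), and Cs8g04550 had 2.88, 1.97 and 2.38 FPKM in JS6, against 36.8, 42.1 and 33.1 FPKM in JS5, with -3.49 (SE 0.16, limma adjusted p = 3.71e-04). The JS were called higher at all 5 steps in Cs3g25010 and lower at all 5 in Cs3g23280.

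IDs of the type Cs5g34620 number the genes along a sequence given by their prefix. Of the 78 genes with such an ID, 2 pairs were direct neighbours in number, and 6 pairs were at most 10 positions apart. The prefix Cs5g held 16 of the 78 genes (20.5%, against 15.2% of the genes of the FPKM range) and Cs4g held 2 (2.56% against 9.12%). The neighbours Cs5g34620 and Cs5g34630 followed each other, with r = 0.96 of log2(FPKM + 1) over the 72 libraries, which share tissue and stage. Cs5g34620 had 559, 486 and 534 FPKM in JS1 and 121, 136 and 168 FPKM in SM1, and Cs5g34630 had 191, 235 and 136 FPKM in JS1 and 24.2, 52.1 and 50.3 FPKM in SM1. Both were at 0 in all of JS6, at least 3398-fold lower than JS1 in Cs5g34620 and at least 864-fold lower in Cs5g34630. The neighbours Cs7g02960 and Cs7g02970 had r = 0.83. Cs7g02960 was present from the start, with 77.3, 76.3 and 79.2 FPKM in JS6, against 51.5, 50.4 and 56.2 FPKM in JS1, where Cs7g02970 was near 0. Whether neighbours share reads as near-identical copies could not be checked. Whether the counting used strand was not given in the sources used here, so reads of overlapping genes on opposite strands may not have been told apart.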

How the data were processed

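RNA of JS, SM, EP and AL at 6 stages was sequenced in 72 libraries, 3 per group. The authors filtered the reads, mapped the clean reads with TopHat2 to the sweet orange genome and deposited an FPKM value for every gene in each library. Cufflinks and HTSeq 0.6.1 are also named in the submitters' processing notes. The authors tested counts with DESeq2, and those counts were not used here. Every column was matched to a sample by name. Strand, and reads shared by near-identical genes, could not be checked.

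The members, lists and tests were chosen with earlier results of these data known. The 91 genes were found by the rule given above. Deposited FPKM values were not scaled further. Differences were tested on log2(FPKM + 1) in R 4.3.3 by limma 3.58.1, using lmFit and a moderated variance (eBayes) that followed the mean level and was robust to outlying genes, with Benjamini-Hochberg adjustment over all genes having at least 1 FPKM in at least 3 libraries compared. Pairs of groups were fitted on their own 6 libraries, and differences between tissues in 1 fit of 24 groups. Whole fragments, within 0.0001, were recovered from the steps of the FPKM values for 27759 of 27759 genes above 0, and were used for depth, implied length, the limit of 3 fragments for values at 0, and limma-voom as an alternative. Intervals and limits cover counting error only, since PCR copies were not marked.

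In each comparison, genes were eligible to be named with an adjusted p under 0.05, at least 10 FPKM in the higher group and groups that did not overlap. The 2 with the highest log2 fold change and the 2 with the lowest were named. The genes with the 2 largest and 2 smallest gaps, the 2 just outside the limit, the 2 with the highest group mean and neighbouring IDs were named as well. The groups of a single fit were not asked to be without overlap. Scripts were tested on simulated data, and figures were drawn with matplotlib 3.10.9 in Python 3.11.15. Alternatives were the pseudocount, the filter, scaling, a replicate block, the single fit, limma-voom and leaving out each library. Consecutive stages of EP and AL were not compared. Deviations of same-numbered libraries from their group means were correlated over genes. Every correlation was over 0.1 in EP6 vs. EP1 and between JS and SM of the same stage at stages 3, 4, 5 and 6 (0.114 to 0.668), with each library closest to its own number at stages 4 and 6. This was not so at stages 1 and 2 (lowest -0.375), or in the other pairs of stages. The study's methods describe the tissues as separated in turn from the sampled fruits, so JS and SM libraries share fruits. That replicate numbers match across tissues was not stated. The reported fits ignore this sharing and treat the libraries as independent.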

Additional observations from a re-analysis of the deposited data

Results flagged for a closer look

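The change of stage 6 vs. stage 1 differed between JS and SM in 54 of the 91 genes (limma, interaction in 1 fit of 24 groups). Of the 20077 genes tested, 30.4% differed. The difference on the log2 scale, JS minus SM, was 5.66 in Cs7g30190, 4.34 in Cs3g25010, -4.64 in Cs2g11110 and -4.18 in Cs7g15300. Among the 52 genes tested in each of the 4 tissues, the change of the flesh minus that of the peel differed from 0 in 39, and it was 9.13 in Cs3g25010. Of the 14847 genes tested in the 4 tissues, 42.2% differed. The 52 genes had been chosen for a lower level in the peel than in the flesh, and nothing is read from their share. Neither count is free of the choice of the genes. For JS and SM the count was 50 to 57 when a library was left out.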

How the results depend on the processing

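Of 227 alternative counts of the 91 genes over 16 comparisons and the choice of the genes, 205 stayed within 1.5 times the reported count. The choice of genes gave 144 genes, 88 of them among the 91, under median-ratio scaling of the libraries, and 141, 85 of them among the 91, from the libraries of replicate number 1 alone, against 84 and 103 from numbers 2 and 3 alone and 131 with a pseudocount of 0.1. Without replicate 1, 2 or 3 it gave 85 to 108. The single fit of all 24 groups called 12 genes at SM6 vs. SM5 and 26 at JS6 vs. JS5. With single libraries left out, the number called was 64 to 78 at SM6 vs. SM1, 60 to 80 at JS6 vs. JS1, 32 to 43 at EP6 vs. EP1 and 36 to 45 at AL6 vs. AL1. Over the steps it was 45 to 58 at SM2 vs. SM1, 35 to 62 at SM3 vs. SM2, 13 to 43 at SM4 vs. SM3, 21 to 31 at SM5 vs. SM4, 11 to 18 at SM6 vs. SM5, 49 to 59 at JS2 vs. JS1, 35 to 44 at JS3 vs. JS2, 11 to 30 at JS4 vs. JS3, 15 to 32 at JS5 vs. JS4 and 14 to 50 at JS6 vs. JS5. It was 50 to 57 for JS minus SM and 71 to 75 of all 91 genes for flesh minus peel. The latter takes in the 39 genes not tested in EP, AL or both, and nothing is read from it. With 2 libraries in a group the fit has fewer degrees of freedom. The cause of the other changes was not tested.

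Median-ratio scaling moved the median of all genes by -0.33 (AL6 vs. AL1) to 0.31 (JS2 vs. JS1) on the log2 scale. Of 817 alternatives of the 64 named pairs of a gene and a comparison, 804 gave the same call, 13 lost it and 0 reversed. With the replicate number as a block, 84 genes were called at SM6 vs. SM1, 85 at JS6 vs. JS1, 54 for JS minus SM and 73 for flesh minus peel, and no count moved by over 1.5 times. A block of the replicate number within each stage, in 1 fit of the JS and SM libraries, gave 66 for JS minus SM, with 55 in which JS fell further or rose less and 11 the opposite, against 47 and 7 as reported. This block was chosen after seeing the data. Depth limits the genes at few fragments: for values at 0, changes are known only as the lower bounds given above.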

Other observations

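The replicates of some of the 91 genes differed far more than those of most genes. The pooled SD within groups on the log2(FPKM + 1) scale was 1.48 in Cs4g17490, 1.45 in Cs5g27130 and 1.1 in Cs7g30190, against a median of 0.39 over the 91 genes and 0.31 over the genes of the FPKM range. These genes were picked after their values were seen. In JS2, Cs4g17490 had 653, 125 and 444 FPKM and Cs5g27130 had 148, 33.2 and 253 FPKM. In SM3 they had 1.41, 116 and 55.2 FPKM and 4.80, 93.4 and 116 FPKM. Replicate 1 was the lowest of the 3 in 12 of the 24 groups for Cs4g17490 and in 11 for Cs5g27130. Their deviations from the group means had r = 0.81 over the 72 libraries and lay on the same side in 55 of them, as a description of libraries that share trees, fruits and handling.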
